A study of Mus musculus with 6 samples.

Results

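Mitosis and chromosome segregation genes, 55 in all, were followed in cells labelled as mouse bone marrow-derived macrophages with and without CD74, the chaperone of MHC class II molecules also called the invariant chain. The 55 genes were chosen by a written list of symbols, made with earlier results of these data known, so counts over them are not independent evidence. All 55 had a row among the 17217 rows of the deposited table. Cdk1, the mitotic kinase partner of the B cyclins, was left off the list because its deposited values are not whole multiples of what 1 read is worth. Bulk RNA sequencing of 6 libraries was available, 3 labelled Control (CD74+/+) and 3 labelled Knockout (CD74-/-). Per the labels, marrow was taken from 8-week-old mice, cultured in 30 ng/mL M-CSF (which makes marrow cells become macrophages) and then given lipopolysaccharide (LPS, a bacterial cell wall component) at 100 ng/mL for 24 h, in both groups alike. Neither the mouse strain nor the type of the Cd74 allele is given in the labels, and the protocol text that goes with all 6 libraries speaks of WT mice. All Control libraries belong to batch 1 and all Knockout libraries to batch 2, so for every result below genotype and batch cannot be told apart. Whether replicates are separate animals or cultures is not given in the labels, and the p-values then measure only the spread between these libraries, which may be technical.

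Mitosis divides the duplicated chromosomes between daughter cells. Cyclin B-dependent kinase drives entry, condensin compacts the chromosomes, kinetochores tie them to spindle microtubules, and the spindle checkpoint holds the anaphase-promoting complex (APC/C) back until every chromosome is attached. The RNAs of these genes are made mainly in late S phase, G2 and mitosis, and are shut off in resting cells by the DREAM complex, which binds the cell cycle homology region (CHR) element near their start sites. The MYBL2-MuvB complex and FOXM1 act through the same sites to turn them on. M-CSF makes bone marrow macrophages divide, and LPS is known to halt that division.

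The promoters of some of the genes are shown first, since this element can be read in their letters. RefSeq promoter windows of build GRCm38.p6, from 250 bases before to 50 bases after each start of transcription, were available for 47 of the 55 genes. Aurkb, Ccna2, Foxm1, Incenp, Kif20a, Smc4, Spc24 and Tpx2 had no entry. The CHR was searched as TTTGAA or TTTAAA and the CCAAT box, a binding site of the factor NF-Y, as CCAAT, each on both strands. In the stretches below, from 100 bases before to 50 bases after the start, read along the gene's strand, capitals mark these letters, which appear as TTCAAA or ATTGG when they lie on the opposite strand. Ccnb1, Cdc20, Ube2c, Plk1, Kif11 and Top2a are shown as genes of large difference, but were not picked by size of difference alone. Aurka (log2 difference 0.92), Mki67 (0.91), Kif2c (0.90), Ncapd2 (0.87) and Cenpf (0.854) differed by more than Cdc20 (0.853) and are not shown. Mki67, Kif2c and Ncapd2 held the CHR in the window, but not within 50 bases of the start. Aurka and Cenpf held it within that distance. Ckap5 is shown as the gene of smallest difference, and Mad2l1 and Cdkn3 as genes with no CHR letters in this stretch.
Ccnb1 (chr13:100786437-100786586, minus strand): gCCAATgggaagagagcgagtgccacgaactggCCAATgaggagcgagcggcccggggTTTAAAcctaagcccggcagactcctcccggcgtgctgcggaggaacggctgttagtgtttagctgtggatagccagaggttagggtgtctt
Cdc20 (chr4:118437294-118437443, minus strand): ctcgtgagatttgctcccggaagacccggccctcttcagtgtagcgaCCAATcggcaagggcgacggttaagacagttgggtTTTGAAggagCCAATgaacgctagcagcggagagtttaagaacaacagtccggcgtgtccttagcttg
Ube2c (chr2:164769829-164769978, plus strand): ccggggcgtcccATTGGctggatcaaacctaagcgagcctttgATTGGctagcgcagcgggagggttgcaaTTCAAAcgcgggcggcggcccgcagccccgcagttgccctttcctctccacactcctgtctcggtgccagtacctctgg
Plk1 (chr7:122159335-122159484, plus strand): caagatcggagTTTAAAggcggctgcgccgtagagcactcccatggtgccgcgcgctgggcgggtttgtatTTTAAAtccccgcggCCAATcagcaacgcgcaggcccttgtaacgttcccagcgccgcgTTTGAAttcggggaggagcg
Kif11 (chr19:37376282-37376431, plus strand): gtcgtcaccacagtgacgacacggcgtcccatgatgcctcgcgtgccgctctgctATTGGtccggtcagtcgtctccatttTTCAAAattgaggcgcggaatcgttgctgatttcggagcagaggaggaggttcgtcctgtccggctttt
Top2a (chr11:99024140-99024289, minus strand): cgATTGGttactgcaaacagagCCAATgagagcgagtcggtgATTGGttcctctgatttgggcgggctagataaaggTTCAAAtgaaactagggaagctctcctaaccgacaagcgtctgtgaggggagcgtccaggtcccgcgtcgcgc
Ckap5 (chr2:91526662-91526811, plus strand): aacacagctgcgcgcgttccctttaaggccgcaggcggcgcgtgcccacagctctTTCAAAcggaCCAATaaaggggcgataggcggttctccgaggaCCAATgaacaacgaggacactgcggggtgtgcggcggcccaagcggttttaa
Mad2l1 (chr6:66535121-66535270, plus strand): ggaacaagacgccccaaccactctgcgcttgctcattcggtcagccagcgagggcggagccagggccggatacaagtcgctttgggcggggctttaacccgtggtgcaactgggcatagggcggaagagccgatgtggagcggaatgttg
Cdkn3 (chr14:46760441-46760590, plus strand): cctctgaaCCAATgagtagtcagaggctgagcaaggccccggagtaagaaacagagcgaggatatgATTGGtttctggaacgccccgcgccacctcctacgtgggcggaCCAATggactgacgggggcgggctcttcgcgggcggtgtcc
Within these stretches, the CHR of Ccnb1 began 42 bases before the start, with CCAAT boxes 99 and 67 bases before it. Cdc20, Ube2c, Kif11 and Top2a had it 18, 29, 19 and 23 bases before the start, each with at least 1 CCAAT box upstream of it. Plk1 held 3 matches, 89 and 29 bases before and 30 bases after the start. Ckap5 held a CHR 45 bases before the start, so the gene of smallest difference carried the same letters as genes of large difference. Mad2l1 had neither motif in its window.

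The CHR letters were in the window of 40 of the 47 genes with an entry (85.1%) and of 23.1% of the 9126 tested genes with an entry. Within 50 bases on either side of the start, a distance set after the promoters were seen, 34 of 47 (72.3%) held it, against 6.39% of tested genes. A CHR together with a CCAAT box anywhere in the window was found for 33 of 47 (70.2%), against 9.58% of tested genes. The trait was shared in part by the other mitotic genes listed outside the 55, of which 30 of 57 with an entry (52.6%) held the CHR in the window, 22 (38.6%) near the start, and 23 (40.4%) together with a CCAAT box. Among 36 DNA replication genes with an entry the CHR was near the start in 4 (11.1%), and among 14 subunits of the APC/C in 0. Both motifs together were found for 6 of these replication genes (16.7%) and 2 of 8 genes of cohesin and its regulators (25%). The CCAAT box, with or without a CHR, was less particular to the mitosis genes. It was in the window of 35 of 47 (74.5%), 39 of 57 other mitotic genes (68.4%), 23 of 36 replication genes (63.9%) and 43.35% of tested genes. For the E2F site, searched as TTTCCCGC, TTTCGCGC, TTTGCCGC or TTTGGCGC on both strands, the matches were in 2 of 47 mitosis genes (4.26%), 14 of 36 replication genes (38.9%) and 4.94% of tested genes, and no difference between lists was tested. Of 89 CCAAT matches in the windows of the mitosis genes, 1 shared a base with a CHR match. These matches are descriptions of letters in the window and were not tested as binding sites.

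**Figure D1:**
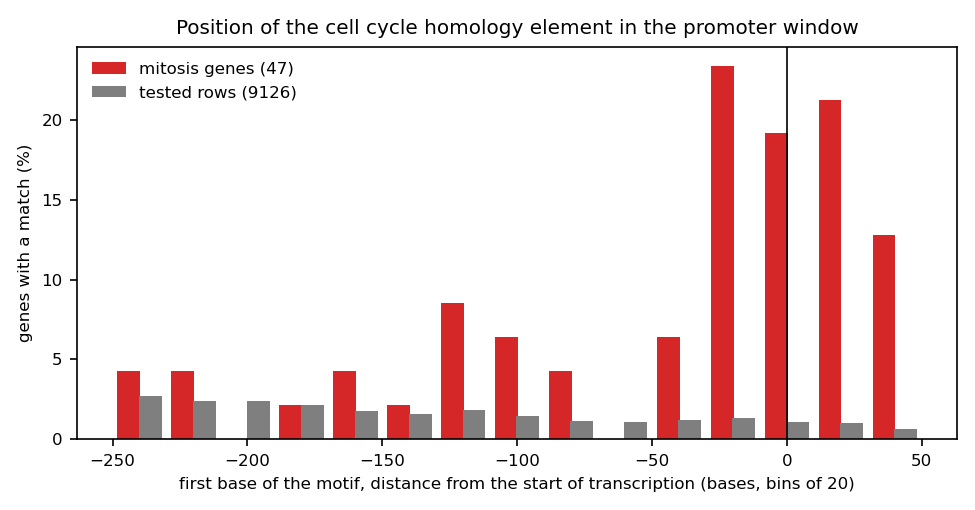
Share of genes (y axis, percent) whose first listed promoter window holds the CHR letters in each bin of 20 bases (x axis, distance from the start of transcription), for 47 mitosis genes (red) and 9126 tested genes (grey). The mitosis genes reach 23.4% in the bin that begins 30 bases before the start, where tested genes have 1.35%.

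The libraries held 35563954 to 57780878 reads in rows whose whole reads could be recovered, and 12854 to 13102 rows reached 1 TPM, the length-scaled unit of the table. Control replicate 1 was the shallowest, at 35563954 reads, against 49311468 or more in the others. Cd74 levels of 632, 593 and 594 TPM in the Control libraries and 65.3, 64.6 and 63.1 TPM in the Knockout libraries (log2 difference -3.22, SE 0.05, limma adjusted p = 1.78e-07) matched the labels, although this row is not in whole reads at the annotated length. Of the 13034 rows that averaged 1 TPM or more, at an adjusted p under 0.05 limma called 2406 up and 1313 down in Knockout libraries, and higher calls made up 64.7% as deposited, 51.5% after median-of-ratios scaling and 48.2% after upper-quartile scaling.

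The 55 listed mitosis genes were higher in the Knockout throughout. Cdk1, left off the list, was lower (log2 difference -0.97, limma adjusted p = 0.00296), with values that are not whole reads. All 55 passed the filter on low values, with mean levels from 14.8 TPM (Cdkn3) to 211 TPM (Cks1b) and from 223 to 29846 reads behind each value. By limma all 55 rose and 0 fell, where 18.5% of tested rows rose and 10.1% fell, and all 55 also rose after median-of-ratios and after upper-quartile scaling. All 55 had every Knockout library above every Control library, which holds for 30.2% of tested rows, and 0 had every Knockout library below, which holds for 19.8%. Their median difference was 0.77 on the log2(TPM + 1) scale, against 0.04 over all tested rows, and it ran from 0.30 (Ckap5) to 1.10 (Kif20a). A difference of at least 0.5 was called for 51 of the 55, against 5.36% of tested rows, and of at least 1 for 4 of the 55, against 0.537%. As plain ratios of mean TPM, the genes stood 1.23 to 2.21 times higher in the Knockout, with a median of 1.74. Limma adjusted p ran from 0.00254 (Ncaph) to 0.0291 (Mad2l1). More dividing cells and more of these RNAs in each dividing cell cannot be told apart in bulk samples.

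**Figure D2:**
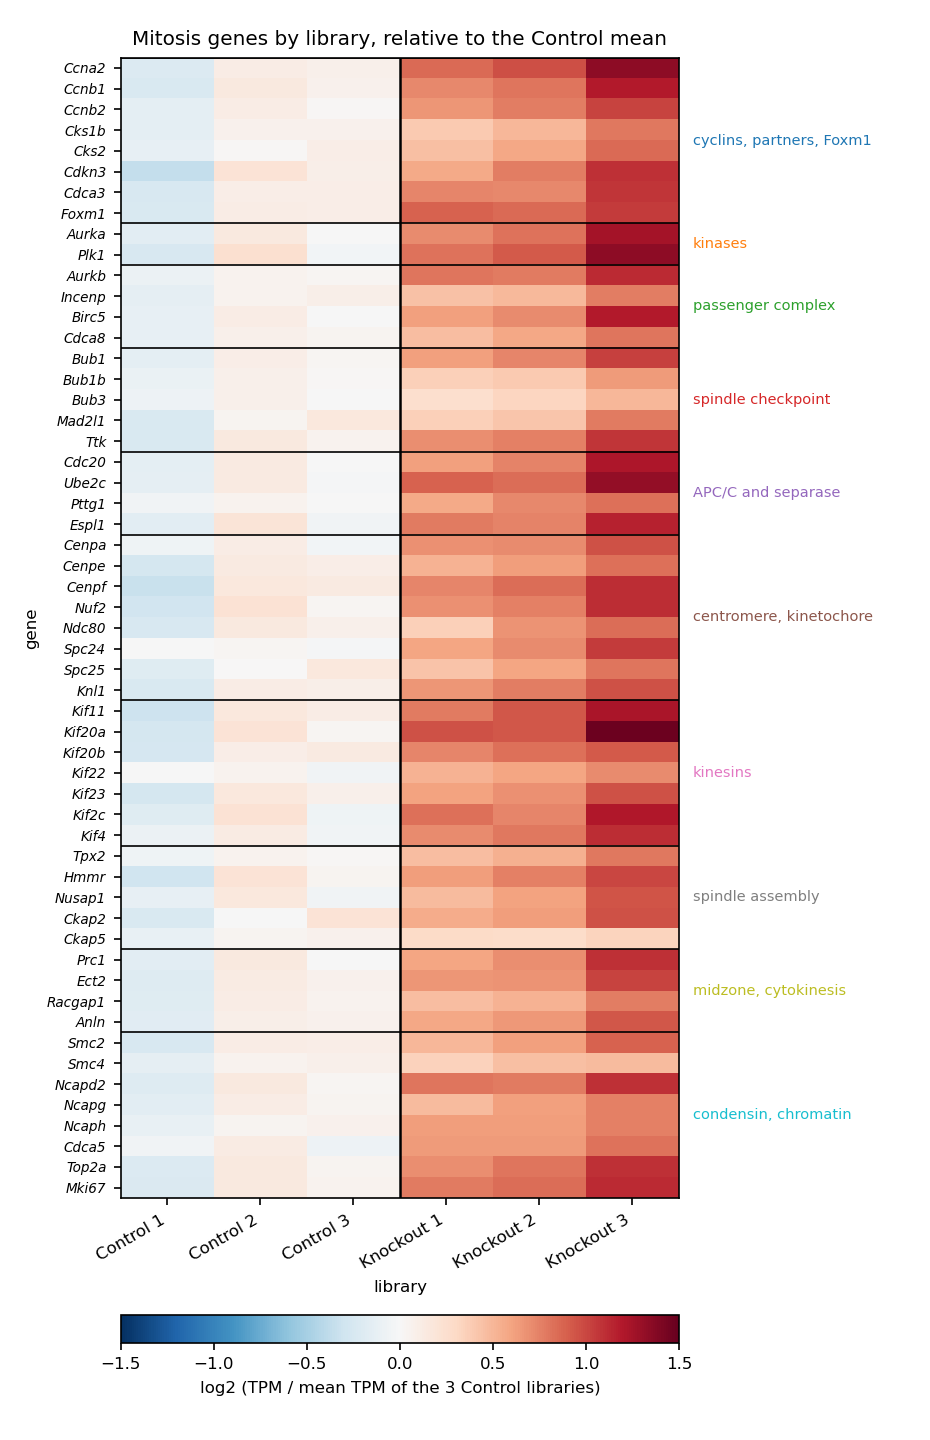
Level of each of the 55 mitosis genes (rows, grouped by role) in each library (columns), as log2 of TPM over the mean of the 3 Control libraries (colour, red higher and blue lower). Every gene is redder in each Knockout library than in any Control library, and Knockout replicate 3 holds the highest value in all 55 rows.

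The same libraries were high or low for most of the genes. Knockout replicate 3 had the highest level of all 55 genes, where it is the highest library for 31.1% of tested rows, and Control replicate 1 had the lowest level of 52 of the 55, against 30.2% of tested rows. Relative to the Control mean, the median level of the 55 genes was 0.889, 1.08 and 1.03 in Control replicates 1 to 3 and 1.53, 1.64 and 2.00 in Knockout replicates 1 to 3. The 55 genes summed to 2086, 2502 and 2407 TPM in the Control libraries and 3486, 3682 and 4491 TPM in the Knockout libraries. This gave 2332 ± 218 TPM in Control and 3886 ± 533 TPM in Knockout (SD, n = 3 each), at a ratio of 1.67. The sums of the groups did not overlap. Leaving out Knockout replicate 3 or Control replicate 1 changed the median difference to 0.65 or 0.68. Without both, a setting chosen after the data were seen, all 55 still rose and the median was 0.58.

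**Figure D3:**
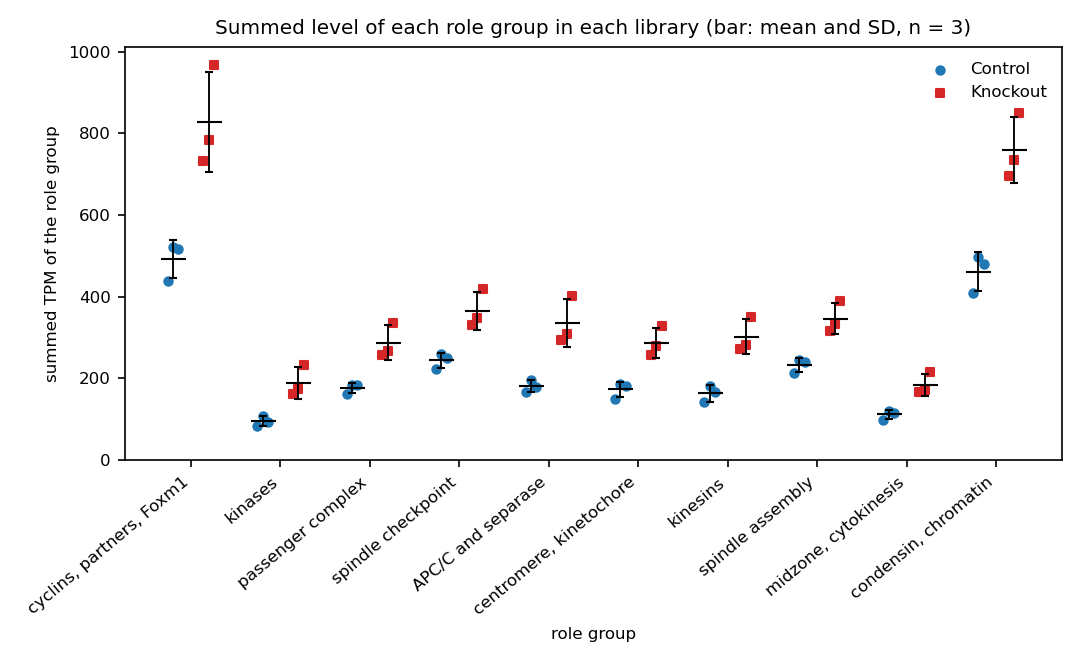
Summed TPM (y axis) of the genes of each role group (x axis) in each Control (blue circles) and Knockout (red squares) library, with the mean and SD of 3 libraries in black. In each of the 10 groups the lowest Knockout library lies above the highest Control library.

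Cyclins, their partners and the transcription factor FOXM1 made up 8 of the genes, and all 8 rose, with a median of 0.82. Cyclin A2, made by Ccna2, drives S phase and the approach to mitosis. Control libraries had Ccna2 levels of 37.2, 46.4 and 45.5 TPM and Knockout libraries 77.6, 84.1 and 109 TPM, in order of replicate. Ccna2 thus rose by 1.04 on the log2 scale (SE 0.14, limma adjusted p = 0.00413), from 43.0 ± 5.08 to 90.2 ± 16.6 TPM (SD, n = 3 each). The groups lay far apart, and this was the second largest difference of the 55 genes. Cks1b encodes a small adaptor that docks substrates on cyclin-dependent kinases, and its level per length was the highest of all 55 genes. Cks1b was measured at 153, 178 and 178 TPM in the Control libraries, replicates 1 to 3, against 222, 240.0 and 294 TPM in the Knockout libraries. Means of 169.5 ± 14.0 and 252 ± 37.4 TPM (SD, n = 3 each) gave a log2 difference of 0.56 (SE 0.11, limma adjusted p = 0.0118). The groups stood apart, with the smallest log2 difference of the 8. Foxm1 (0.91), Ccnb1 (0.90) and Ccnb2 (0.81), which encode the factor that activates G2 and M genes and the 2 B cyclins, Cdca3 (0.83), a mitotic entry factor, Cdkn3 (0.78), a phosphatase of cyclin-dependent kinases, and Cks2 (0.62), the paralog of Cks1b, lay between. Cdk1, the kinase itself, was tabulated at 35.0, 43.1 and 38.1 TPM in the Control libraries against 22.4, 16.9 and 18.8 TPM in the Knockout libraries. Its row went against all 8 genes (log2 difference -0.97, limma adjusted p = 0.00296), and its values were not whole reads at the annotated length.

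The group of mitotic kinases outside the passenger complex and checkpoint held Plk1 and Aurka, and both rose. Plk1 encodes polo-like kinase 1, which acts at centrosomes, kinetochores and the midzone. Levels of Plk1 were 34.8, 48.3 and 39.8 TPM in the Control libraries and 72.3, 77.3 and 104 TPM in the Knockout libraries, in order of replicate. Plk1 differed by 1.02 on the log2 scale (SE 0.16, limma adjusted p = 0.00616), with means of 41.0 ± 6.85 and 84.6 ± 17.1 TPM (SD, n = 3 each). The Knockout values lay far above the Control values, whose own spread was wide, with replicate 2 the highest. Aurka encodes Aurora A, the kinase of spindle poles. For Aurka, the Control libraries gave 48.9, 60.0 and 54.3 TPM and the Knockout libraries 89.2, 95.8 and 129.7 TPM, in order of replicate. The Aurka mean rose from 54.4 ± 5.53 to 105 ± 21.7 TPM (SD, n = 3 each), by 0.92 on the log2 scale (SE 0.14, limma adjusted p = 0.00591). Knockout replicate 3 stood well above the other Knockout libraries for both kinases.

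The chromosomal passenger complex joins Aurora B to its scaffold INCENP, survivin and borealin, and corrects faulty attachments of chromosomes. Its 4 genes rose, with unequal size. Control libraries had Aurkb levels of 29.5, 32.5 and 32.0 TPM and Knockout libraries 54.5, 54.0 and 68.1 TPM, in order of replicate. Aurkb thus rose by 0.88 on the log2 scale (SE 0.10, limma adjusted p = 0.00269), from 31.3 ± 1.60 to 58.9 ± 8.01 TPM (SD, n = 3 each). Birc5 (0.82), which encodes survivin, was close to Aurkb. Incenp, the scaffold gene, had the highest level of the 4 and the smallest difference. Incenp was measured at 74.4, 84.8 and 86.9 TPM in the Control libraries, replicates 1 to 3, against 112, 114 and 140.2 TPM in the Knockout libraries. Means of 82.1 ± 6.68 and 122 ± 15.7 TPM (SD, n = 3 each) gave a log2 difference of 0.56 (SE 0.10, limma adjusted p = 0.00881). Cdca8 (0.60), which encodes borealin, was close to Incenp.

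All 5 spindle checkpoint genes rose, with the lowest median of the 10 role groups, 0.51. Ttk encodes MPS1, the kinase that starts checkpoint signalling. Levels of Ttk were 15.0, 19.4 and 18.2 TPM in the Control libraries and 28.3, 29.6 and 36.9 TPM in the Knockout libraries, in order of replicate. Ttk differed by 0.81 on the log2 scale (SE 0.12, limma adjusted p = 0.00588), with means of 17.5 ± 2.29 and 31.6 ± 4.62 TPM (SD, n = 3 each). Bub1, a kinetochore kinase, had the highest mean level of these 5 genes. For Bub1, the Control libraries gave 63.2, 74.9 and 71.3 TPM and the Knockout libraries 107, 116 and 142 TPM, in order of replicate. The Bub1 mean rose from 69.8 ± 5.99 to 122 ± 18.4 TPM (SD, n = 3 each), by 0.79 on the log2 scale (SE 0.11, limma adjusted p = 0.00502). Both genes had groups well apart. Bub3, which carries BUB1 and BUBR1 to kinetochores, differed least. Control libraries had Bub3 levels of 56.6, 62.5 and 59.4 TPM and Knockout libraries 70.9, 74.3 and 83.9 TPM, in order of replicate. Bub3 thus rose by 0.35 on the log2 scale (SE 0.07, limma adjusted p = 0.0139), from 59.5 ± 2.95 to 76.3 ± 6.78 TPM (SD, n = 3 each). Its Control and Knockout libraries did not overlap, but the call was lost without Control replicate 1 or 3 (limma adjusted p up to 0.0504). Mad2l1 encodes MAD2, which binds and inhibits CDC20. Mad2l1 was measured at 15.7, 19.1 and 20.7 TPM in the Control libraries, replicates 1 to 3, against 23.7, 24.8 and 31.8 TPM in the Knockout libraries. Means of 18.5 ± 2.51 and 26.8 ± 4.36 TPM (SD, n = 3 each) gave a log2 difference of 0.51 (SE 0.13, limma adjusted p = 0.0291). Knockout replicate 1 came within a few TPM of Control replicate 3. Mad2l1 lost its call without Control replicate 1, Control replicate 2 or Knockout replicate 2, and with plain eBayes (limma adjusted p up to 0.0846). Bub1b, which encodes BUBR1, stood at 0.46.

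Genes of the APC/C pathway on the list encode the activator CDC20, the ubiquitin-conjugating enzyme UBE2C, the separase ESPL1 and its inhibitor securin (Pttg1), and all 4 rose, with a median of 0.85. Levels of Ube2c were 47.9, 58.0 and 52.0 TPM in the Control libraries and 97.4, 94.3 and 131 TPM in the Knockout libraries, in order of replicate. Ube2c differed by 1.00 on the log2 scale (SE 0.13, limma adjusted p = 0.00409), with means of 52.6 ± 5.10 and 107 ± 20.2 TPM (SD, n = 3 each). In the annotation 22.8% of Ube2c exon bases are shared with Tnnc2 on the opposite strand, and the table held no row for Tnnc2. For Cdc20, the Control libraries gave 63.0, 76.3 and 69.5 TPM and the Knockout libraries 107, 117 and 161 TPM, in order of replicate. The Cdc20 mean rose from 69.6 ± 6.65 to 128 ± 28.9 TPM (SD, n = 3 each), by 0.85 on the log2 scale (SE 0.15, limma adjusted p = 0.00875). Knockout replicate 3 carried much of the spread of Cdc20. Securin, the guard of separase, differed least of the 4. Control libraries had Pttg1 levels of 45.1, 48.5 and 46.7 TPM and Knockout libraries 69.1, 76.8 and 83.2 TPM, in order of replicate. Pttg1 thus rose by 0.69 on the log2 scale (SE 0.07, limma adjusted p = 0.00264), from 46.8 ± 1.72 to 76.3 ± 7.06 TPM (SD, n = 3 each). Espl1 stood at 0.85.

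All 8 centromere and kinetochore genes rose, with a median of 0.75. Cenpf encodes a large kinetochore protein that accumulates in G2. Cenpf was measured at 9.08, 12.7 and 12.5 TPM in the Control libraries, replicates 1 to 3, against 19.1, 20.5 and 24.6 TPM in the Knockout libraries. Means of 11.4 ± 2.05 and 21.4 ± 2.90 TPM (SD, n = 3 each) gave a log2 difference of 0.85 (SE 0.14, limma adjusted p = 0.00744). The microtubule motor gene Cenpe had the highest mean level of the 8. Levels of Cenpe were 30.8, 40.7 and 39.5 TPM in the Control libraries and 53.3, 57.2 and 65.5 TPM in the Knockout libraries, in order of replicate. Cenpe differed by 0.65 on the log2 scale (SE 0.12, limma adjusted p = 0.00947), with means of 37.0 ± 5.38 and 58.6 ± 6.21 TPM (SD, n = 3 each). Both genes separated the groups. Ndc80, Nuf2, Spc24 and Spc25 encode the 4 subunits of the NDC80 complex, the main microtubule coupler of the kinetochore, at Control means of 17.2, 18.3, 15.4 and 32.3 TPM. For Spc25, the Control libraries gave 28.6, 32.5 and 36.0 TPM and the Knockout libraries 43.6, 48.7 and 56.4 TPM, in order of replicate. The Spc25 mean rose from 32.3 ± 3.72 to 49.6 ± 6.45 TPM (SD, n = 3 each), by 0.60 on the log2 scale (SE 0.11, limma adjusted p = 0.0104). Control libraries had Ndc80 levels of 14.5, 18.9 and 18.0 TPM and Knockout libraries 22.0, 27.4 and 30.7 TPM, in order of replicate. Ndc80 thus rose by 0.60 on the log2 scale (SE 0.14, limma adjusted p = 0.0184), from 17.2 ± 2.32 to 26.7 ± 4.37 TPM (SD, n = 3 each). Knockout replicate 1 was the nearest to Control for both genes, and Ndc80 lost its call without Control replicate 1 or Knockout replicate 2 (limma adjusted p up to 0.0572). Nuf2 (0.83), Knl1 (0.77), the scaffold gene of the outer kinetochore, Cenpa (0.76), the centromeric histone variant gene, and Spc24 (0.75) rose as well.

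The 7 mitotic kinesin genes rose, with a median of 0.83. Kif20a encodes MKLP2, which brings the passenger complex to the midzone, and it had the largest difference of all 55 genes. Kif20a was measured at 21.7, 30.1 and 26.5 TPM in the Control libraries, replicates 1 to 3, against 50.5, 49.9 and 72.4 TPM in the Knockout libraries. Means of 26.1 ± 4.21 and 57.6 ± 12.8 TPM (SD, n = 3 each) gave a log2 difference of 1.10 (SE 0.17, limma adjusted p = 0.0057). Knockout replicate 3 stood well above the other Knockout libraries. In the annotation 29.3% of Kif20a exon bases are shared with Cdc23 on the opposite strand, and Cdc23 had no call, at 18.6 ± 0.529 and 20.8 ± 1.21 TPM in Control and Knockout (SD, n = 3 each). Kif22, a chromosome arm motor gene, differed least of the 7. Levels of Kif22 were 22.5, 23.4 and 21.7 TPM in the Control libraries and 32.5, 34.1 and 36.8 TPM in the Knockout libraries, in order of replicate. Kif22 differed by 0.59 on the log2 scale (SE 0.06, limma adjusted p = 0.00264), with means of 22.6 ± 0.854 and 34.5 ± 2.15 TPM (SD, n = 3 each). Its spread within each group was among the smallest of the genes described here. Kif11 (0.96), which pushes spindle poles apart, Kif2c (0.90), a microtubule depolymerase, Kif4 (0.83) and Kif20b (0.81), and Kif23 (0.74), a centralspindlin motor, lay between.

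Spindle assembly genes numbered 5, and all rose. Tpx2, which activates Aurora A at the spindle, had the highest level of them. For Tpx2, the Control libraries gave 82.1, 89.3 and 87.2 TPM and the Knockout libraries 118, 125 and 149 TPM, in order of replicate. The Tpx2 mean rose from 86.2 ± 3.67 to 131 ± 16.2 TPM (SD, n = 3 each), by 0.59 on the log2 scale (SE 0.09, limma adjusted p = 0.00559). Hmmr encodes a spindle pole protein that also binds hyaluronan. Control libraries had Hmmr levels of 26.0, 36.8 and 32.8 TPM and Knockout libraries 49.2, 53.7 and 63.7 TPM, in order of replicate. Hmmr thus rose by 0.79 on the log2 scale (SE 0.14, limma adjusted p = 0.00869), from 31.8 ± 5.45 to 55.6 ± 7.42 TPM (SD, n = 3 each). Control replicate 2 was the highest Control library for both. Ckap5 encodes chTOG, a microtubule polymerase that also works outside mitosis, and had the smallest difference of the 55 genes. Ckap5 was measured at 60.8, 68.0 and 68.8 TPM in the Control libraries, replicates 1 to 3, against 80.4, 79.5 and 83.1 TPM in the Knockout libraries. Means of 65.9 ± 4.39 and 81.0 ± 1.89 TPM (SD, n = 3 each) gave a log2 difference of 0.30 (SE 0.06, limma adjusted p = 0.0124). The 3 Knockout libraries of Ckap5 lay close together, unlike those of most other genes. Ckap2 (0.70) and Nusap1 (0.66), 2 microtubule-associated proteins of the spindle, lay between.

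Midzone and cytokinesis genes, 4 in number, all rose, by 0.57 to 0.77. Ect2 encodes the exchange factor that switches on RhoA for the cleavage furrow. Levels of Ect2 were 27.0, 33.6 and 32.3 TPM in the Control libraries and 48.9, 49.3 and 62.6 TPM in the Knockout libraries, in order of replicate. Ect2 differed by 0.77 on the log2 scale (SE 0.12, limma adjusted p = 0.00589), with means of 31.0 ± 3.51 and 53.6 ± 7.79 TPM (SD, n = 3 each). Anln encodes anillin, the scaffold of the contractile ring. For Anln, the Control libraries gave 29.2, 34.9 and 34.4 TPM and the Knockout libraries 49.0, 51.5 and 62.6 TPM, in order of replicate. The Anln mean rose from 32.8 ± 3.15 to 54.4 ± 7.25 TPM (SD, n = 3 each), by 0.71 on the log2 scale (SE 0.11, limma adjusted p = 0.0057). Racgap1, the centralspindlin partner of Kif23, differed least of the 4. Control libraries had Racgap1 levels of 26.3, 32.3 and 31.1 TPM and Knockout libraries 41.2, 42.8 and 51.1 TPM, in order of replicate. Racgap1 thus rose by 0.57 on the log2 scale (SE 0.10, limma adjusted p = 0.00951), from 29.9 ± 3.15 to 45.0 ± 5.31 TPM (SD, n = 3 each). In all 3 genes the lowest Knockout library was above the highest Control library by a clear margin. Prc1, which bundles midzone microtubules, stood at 0.77.

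Condensin, cohesion and mitotic chromatin genes numbered 8, and all rose, with a median of 0.67. Mki67 encodes Ki-67, the surfactant of mitotic chromosomes and the usual marker of dividing cells. Mki67 was measured at 65.7, 84.6 and 79.6 TPM in the Control libraries, replicates 1 to 3, against 132, 138 and 166 TPM in the Knockout libraries. Means of 76.6 ± 9.76 and 145 ± 18.2 TPM (SD, n = 3 each) gave a log2 difference of 0.91 (SE 0.12, limma adjusted p = 0.00384). Top2a encodes topoisomerase II alpha, which untangles sister chromatids. Levels of Top2a were 79.9, 102 and 95.0 TPM in the Control libraries and 149.7, 161 and 197 TPM in the Knockout libraries, in order of replicate. Top2a differed by 0.87 on the log2 scale (SE 0.12, limma adjusted p = 0.00482), with means of 92.2 ± 11.2 and 169 ± 24.7 TPM (SD, n = 3 each). Both genes were among the 5 highest of the 55 and separated the groups widely. Smc4, a core subunit of both condensins, differed least of the 8. For Smc4, the Control libraries gave 101, 115 and 117 TPM and the Knockout libraries 141, 151 and 154 TPM, in order of replicate. The Smc4 mean rose from 111 ± 8.43 to 149 ± 7.07 TPM (SD, n = 3 each), by 0.42 on the log2 scale (SE 0.07, limma adjusted p = 0.00679). Knockout replicate 3 hardly exceeded replicate 2 for Smc4. Among the condensin I subunits, Ncapd2 stood at 0.87, Ncaph at 0.65 and Ncapg at 0.60. Smc2, the other core subunit, stood at 0.67 and Cdca5, which encodes the cohesion protector sororin, at 0.68.

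**Figure D4:**
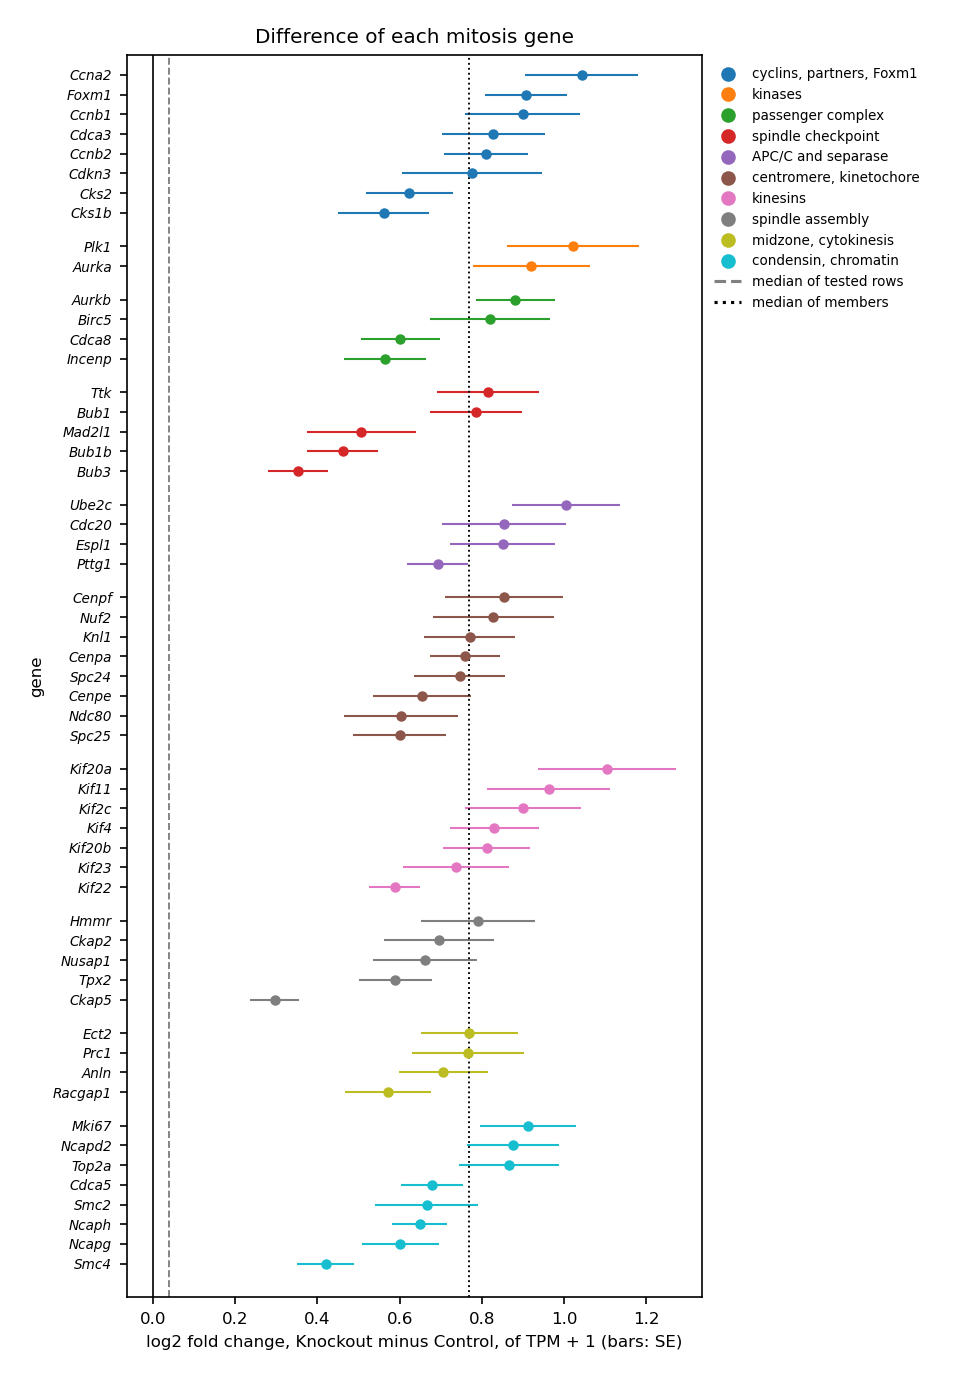
Difference between Knockout and Control of each of the 55 mitosis genes (points, log2 scale of TPM + 1, bars SE), grouped and coloured by role. All points lie above the median of tested rows (dashed line, 0.04), from 0.30 for Ckap5 to 1.10 for Kif20a.

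Across the 55 genes, which share their libraries and are not independent, Spearman's rho between the log2 difference and the mean TPM was -0.07. The coefficient of variation had a median of 10.6% in Control and 14.0% in Knockout. Genes with the CHR near the start had a median difference of 0.77 (34 genes), those with it elsewhere in the window 0.85 (6 genes), and those without it in the window 0.66 (7 genes). The ranges of these sets overlapped, at 0.30 to 1.02, 0.70 to 0.91 and 0.51 to 0.83.

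Ratios between partners of 1 complex or pathway were also compared. They were chosen after the levels were seen, 15 in all, and are ratios of TPM, a level per length. Incenp over Aurkb was 2.52, 2.61 and 2.71 in the Control libraries and 2.05, 2.12 and 2.06 in the Knockout libraries. The scaffold thus exceeded the kinase by less in every Knockout library than in any Control library, with means of 2.62 ± 0.0966 and 2.08 ± 0.0397 (SD, n = 3 each). Bub1 over Bub1b was 0.858, 0.898 and 0.889 in Control and 1.05, 1.12 and 1.15 in Knockout, so the order of these paralogs' levels turned over between the groups. The condensin I subunits Ncapd2, Ncapg and Ncaph, taken as a mean over that of the core subunits Smc2 and Smc4, stood at 0.311 ± 0.00737 in Control and 0.360 ± 0.0108 in Knockout (SD, n = 3 each), again without overlap. Aurka over its activator Tpx2 went from 0.630 ± 0.0387 to 0.797 ± 0.0630, and Bub1 over Bub3 from 1.17 ± 0.0476 to 1.59 ± 0.0969 (SD, n = 3 each). Ccna2 over Ccnb1, Cks1b over Cks2, Nuf2 over Ndc80, Smc4 over Smc2, Kif23 over Racgap1 and Ube2c over Cdc20 did not overlap either. For each of these ratios the exact two-sided permutation test gave p = 0.1, the smallest that 3 against 3 libraries allow. After Benjamini-Hochberg adjustment over the 15 it was 0.136. Any ratio without overlap gets this p, so the test adds nothing to the values. How often ratios of other gene pairs separate the groups was not counted. Ccnb2 over Ccnb1, Spc25 over Spc24, Pttg1 over Espl1 and Kif20a over Kif20b overlapped between the groups, with exact p of 0.2 to 0.3.

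Some of the genes lie across others on the opposite strand, and whether counting used strand is not given in the sources used here. Over 10% of exon bases were shared for Kif20a, Ube2c, Kif4 (with Pdzd11), Ncapg (with Lcorl), Ccna2 (with Exosc9) and Prc1 (with Rccd1). None of the 5 neighbours with a row was called, and their log2 differences ran from -0.31 (Rccd1) to 0.16 (Cdc23). Whether reads of the neighbours enter the values of the mitosis genes was not tested. Ccnb1, Ccnb2, Cks1b, Kif22 and Kif4 have named copies elsewhere in the annotation (Cks1brt for Cks1b, pseudogenes for the others), and how reads were divided among copies is not stated.

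Outside the 55 genes, 69 other mitotic genes were listed and all 69 had a row and were tested. The counts of these lists stand beside 18.5% higher and 10.1% lower among all tested rows. Of the 69, 57 rose, 0 fell and 12 were not called, with a median of 0.60. The 57 became 55 under either scaling and 51 to 55 with 1 library left out. Pbk, a mitotic kinase gene, rose by 1.02 and Ccnf, which encodes cyclin F, by 1.01. Those not called included Zwint (-0.02) and Plk4 (0.15), a kinetochore linker and the kinase of centriole duplication, both chosen after their values were seen. Subunits and activator of the APC/C machine, 15 genes, had a median of 0.13, with 5 higher and 0 lower; the largest were Anapc13 (0.44) and Anapc5 (0.41). The 5 became 3 under either scaling, with no filter, or without Control 1, Control 2, Knockout 1 or Knockout 2, and 2 without Control 3. Cohesin and its regulators, 13 genes, had a median of 0.21, with 7 higher and 0 lower, led by Esco2 (0.78), which acetylates cohesin in S phase, and Pds5b (0.44). Without Control 1 or without Control 3 the 7 became 4. In the DREAM and MuvB list of 12 genes, 5 were higher and 1 was lower, with a median of 0.27. Mybl2 (1.17), which encodes the activator B-MYB, stood far from the others, followed by Tfdp1 (0.58), while Lin37, a MuvB core subunit named after its value was seen, fell by 0.24. The Lin37 call was lost with the replicate block, with plain eBayes, and without Control 2, Control 3, Knockout 2 or Knockout 3, and the 5 higher became 3 without Control 1 or without Control 3. DNA replication genes, 45 in number, had 42 higher and 0 lower, with a median of 0.60, led by Rrm2 (1.08) and Uhrf1 (0.96). Their 42 became 40 under either scaling and 37 to 42 with 1 library left out. The medians of the mitosis genes, other mitotic genes and replication genes in Knockout replicates 1 to 3 relative to the Control mean were 1.53, 1.64 and 2.00, then 1.42, 1.51 and 1.71, then 1.39, 1.53 and 1.74, so Knockout replicate 3 was the highest for the replication genes too. Differences between these lists were not tested.

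**Figure D5:**
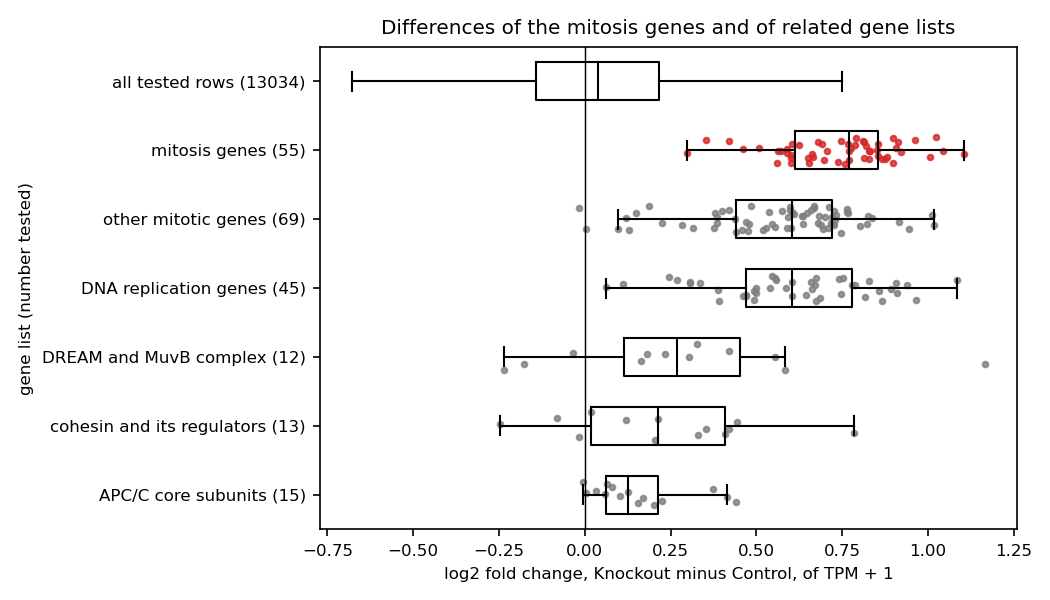
Difference between Knockout and Control (x axis, log2 scale of TPM + 1) in all tested rows and in the gene lists (y axis, number tested in brackets). Boxes show the median and quartiles, whiskers reach the last value within 1.5 interquartile ranges, and points are genes, with the 55 mitosis genes in red around a median of 0.77 and all tested rows around 0.04.

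Markers of other cells the cultures could hold were set beside these values. Of 16 macrophage markers 11 had a row, and the table held no row for Mertk, Maf, C1qa, C1qb or C1qc. The 10 tested gave 5 higher, 1 lower and 4 not called. All marker counts here stand beside 18.5% higher and 10.1% lower among all tested rows. The macrophage list summed to 10851 to 11376 TPM in Control and 14234 to 15495 TPM in Knockout. Most of that difference lay in Lyz2, the lysozyme gene, named after its values were seen, at 5373 ± 355 TPM in Control and 8658 ± 778 TPM in Knockout (SD, n = 3 each). Cd68 (0.07) and Cd14 (0.10), also of high level, were not called, and Adgre1, which encodes F4/80, fell by 0.56. Cx3cr1, the fractalkine receptor gene, rose by 1.77 and Csf1r, the M-CSF receptor gene, by 0.76, from 134, 154 and 145 TPM in the Control libraries to 226, 221 and 291 TPM in the Knockout libraries. Knockout replicate 3 was again the highest. Of 10 markers of marrow progenitors, which divide, 9 had no row (Kit, Cd34, Flt3, Mpo, Elane, Prtn3, Ctsg, Meis1 and Hoxa9), and Gata2 stood at 0.393 to 0.710 TPM in Control and 0.441 to 0.569 TPM in Knockout. Why genes lack a row is not given in the sources used here, so a missing row is not evidence of no expression. The neutrophil list, with 3 of 8 genes in the table, summed to 17.6 to 18.1 TPM in Control and 23.8 to 29.3 TPM in Knockout, in which S100a8 rose by 1.73 and Csf3r fell by 0.62. Lists of erythroid and stromal markers summed to at most 2.12 TPM in any library. Among B, T and mast cell markers Ighm rose by 0.41, Lck fell by 0.25 and Hdc fell by 1.73, and of 2 tested dendritic cell markers 0 were called. The part of changed cell makeup in the mitosis genes was not tested.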

How the data were processed

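RNA from 6 libraries was sequenced, and the authors deposited 1 table of expression values per gene and library. The deposited values were read as TPM, a length-scaled abundance, because the columns sum to 991721 to 998572 and low values are multiples of a gene- and library-specific step; the header names no unit. Per the submitters' processing notes, the build GRCm39 and the tool DESeq2 were involved, with no role given; aligner, counter, annotation and strand setting are not given in the sources used here. 0 columns were unmapped.

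Whole reads were recovered as TPM times the union exon length (GENCODE M21, GRCm38, used for lengths alone) over the library's step. Within 0.02 read, 16508 of 17217 rows (95.9%) were whole in all 6 libraries, among them all 55 mitosis genes. Without gene lengths the depth would be unknown.

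Tests used limma 3.58.1 in R 4.3.3 (lmFit, eBayes with trend and robust) on log2(TPM + 1) for rows averaging at least 1 TPM, two-sided, Benjamini-Hochberg adjusted over 13034 rows, threshold 0.05. The plus 1 understates the change of low genes. The procedure was checked on simulated data in which each gene was drawn independently and libraries differed only in depth and group. The check thus does not cover genes that move together by library, as the mitosis genes did. Its spread between libraries was set to the same value for every gene, below the median spread of the mitosis genes. The 14 alternatives were pseudocount 0.1, no filter, a minimum of 5 TPM, 2 scalings, a replicate block, plain eBayes, limma-voom on recovered reads and each library left out; leaving out 2 libraries together was added after seeing the data. Members, role groups and gene lists were chosen with earlier results of these data known, so counts over them are not independent evidence. Genes given with values in every library were, in each role group, that of highest mean TPM, largest difference and smallest difference, and those that lost a call in an alternative. Other lists are named by their 2 largest called differences and Mybl2. Promoter sequences are RefSeq's (GRCm38.p6), an earlier build than GRCm39, and were matched by symbol.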

Additional observations from a re-analysis of the deposited data

How the results depend on the processing

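Of 825 combinations of a mitosis gene and an alternative (14, and 1 added after the data were seen), 817 kept the call and 0 reversed direction. The 8 losses fell on Bub3, Mad2l1 and Ndc80. With 1 library left out, 52 to 55 of the 55 genes rose, 0 fell, their median was 0.65 to 0.84 and the summed TPM ratio 1.54 to 1.75. Without Control 1 and Knockout 3 together the median moved to 0.58. The replicate block (numbers shared by the labels only) left 55 genes higher. The correlations of same-numbered deviations were 0.13, -0.08 and 0.03, and those of differently numbered ones ran from -0.17 to 0.17. With so few libraries these values cannot settle whether the numbers pair the libraries. With the block or plain eBayes, 0 DREAM and MuvB genes were lower. APC/C genes higher were 3 with no filter and under both scalings. Under both scalings 1 cohesin gene and 2 DREAM and MuvB genes were lower, and 1 cohesin gene was lower under limma-voom. With 1 library left out, genes higher were 2 to 4 for the APC/C, 4 to 6 for cohesin and 3 to 5 for DREAM and MuvB (0 to 2 lower), and over all rows 1313 to 2096 were higher and 669 to 1219 lower, with 1408, 1313 and 1584 higher without Control 1, Control 3 and Knockout 2, and 721, 772, 669 and 868 lower without Control 1, Control 2, Control 3 and Knockout 2. The cause was not tested. Every fit with 1 library left out loses the same number of degrees of freedom. Batch equals genotype, so it limits every result.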
